A study of Mus musculus with 4 samples.

Results

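The small ribosomal subunit processing factors described here are 52 listed genes of 24411 in the deposited tables. They were listed by name, for their known role in making the small ribosomal subunit. The rule uses no measured value, but the list was drawn up with earlier results of these data known. In the mouse, as in yeast, ribosomal RNA is cut from a long precursor in the nucleolus. The U3 small nucleolar RNA and a large set of proteins assemble on the precursor as it is made, form the small-subunit processome, hold the 18S region in a partly folded state, and are removed again by helicases and a GTPase. Later factors carry the particle to the cytoplasm, where the last piece of spacer is cut off. The early mouse embryo begins to make ribosomal RNA of its own around the 2-cell stage, as its nucleoli take shape.

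The siPwp1 group was 2 libraries of ICR mouse embryos made by in vitro fertilization, electroporated at 3 hpi with siRNA against Pwp1, and grown to morulae at 72 hpi in KSOM containing bovine serum albumin. The siControl group was 2 libraries of embryos treated the same way with a control siRNA. ICR is an outbred laboratory stock, the siRNA was given to the whole embryo and not to one cell type, and each library pooled 10 embryos. RNA with a poly(A) tail was amplified with a SMART-Seq kit before sequencing, and the labels do not say whether replicates were cultured separately. The p-values below therefore cover the spread among these 4 libraries, which may be technical.

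Expected counts summed to 48765229 and 30356988 in siPwp1 replicates 1 and 2, and to 28981358 and 44985949 in siControl replicates 1 and 2. Pwp1, which encodes a WD-repeat protein with known roles in ribosomal RNA synthesis (chr10:85829494-85889096, GRCm38, plus strand), had 36.9 and 37.2 CPM (counts scaled to library size) in siPwp1 against 215 and 365 CPM in siControl. Both siPwp1 libraries thus lay below both siControl libraries, by 7.83-fold, although edgeR's quasi-likelihood test gave an adjusted p of 0.22 and DESeq2 an adjusted p of 1.47e-12. All 10 morula markers were measured in the libraries, with sums of 467 and 319.9 TPM in siPwp1 against 748 and 329 TPM in siControl. Cumulus markers summed to at most 0.15 TPM in any library, with Cyp19a1, Ptx3 and Inhba at 0 throughout. Blood markers summed to 145.5 and 154 TPM in siPwp1 against 38.6 and 117 TPM in siControl. Of the 8, Hbb-bs and Hbb-bt were at 0 throughout, and 4 passed the filter on low counts. All 4 had a log2 fold change above 0, siPwp1 over siControl, with a median of 1.19. In 2 of the 4 both siPwp1 libraries lay above both siControl libraries, against 14.7% of all genes tested. For the 4, edgeR called 0, with 1 at an unadjusted p under 0.05 (2.66% of all genes), and DESeq2 called 0. Sperm markers summed to at most 3.14 TPM, with Akap4 at 0 throughout.

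All 52 processing factors were detected in all 4 libraries and all passed the filter on low counts. The lowest count of any factor in any library was 282, for Diexf in siPwp1 replicate 2. Levels between genes are given as TPM, which is scaled for transcript length. The factors stood high among expressed genes: their median percentile among genes with a group mean of at least 1 TPM was 77.3 in siPwp1 and 76.2 in siControl, with 30 and 28 factors in the top 25%. Levels within the set spanned a ratio of 217 between the highest and the lowest factor in both siPwp1 and siControl.

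Emg1, the methyltransferase that modifies a pseudouridine of 18S ribosomal RNA, was the most abundant factor (chr6:124704085-124712178, GRCm38, minus strand). It had 462 and 452 TPM in siPwp1 against 447 and 454 TPM in siControl, so the groups overlapped and the libraries were nearly level. Dcaf13, the relative of yeast Sof1, came next with 322 and 514 TPM in siPwp1 against 229 and 494 TPM in siControl. Its replicates differed far more than those of Emg1, and the group levels of these neighbours did not differ beyond the spread of Dcaf13. Pno1, the relative of the yeast late factor Dim2, had 291 and 321 TPM in siPwp1 against 256 and 370.2 TPM in siControl. At the other end, Diexf, the relative of yeast Utp25, had 2.35 and 1.86 TPM in siPwp1 against 2.44 and 1.71 TPM in siControl. Diexf was named after its values were seen.

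Subunits of one complex did not share one mRNA level. Within UtpA, the subcomplex that binds the start of the precursor first, the highest subunit stood 11.9 times above the lowest in siPwp1 and 13.6 times in siControl. Cirh1a had 149 and 257 TPM in siPwp1 against 123 and 261 TPM in siControl, whereas Heatr1, a long HEAT-repeat subunit named after its values were seen, had 13.9 and 20.2 TPM in siPwp1 against 11.8 and 16.4 TPM in siControl. Within UtpB, the subcomplex that joins next, the same ratio was 11.6 in siPwp1 and 14.0 in siControl, between Utp18 at the top and Pwp2 at the bottom. Across the 52 factors, transcript length and mean TPM had a Spearman rho of -0.59 in siPwp1 and -0.56 in siControl. Across the 9575 genes with a siControl mean of at least 1 TPM, rho was -0.39 in siPwp1 and -0.36 in siControl. These are descriptions across genes that share libraries, and TPM itself is computed with length.

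**Figure D1:**
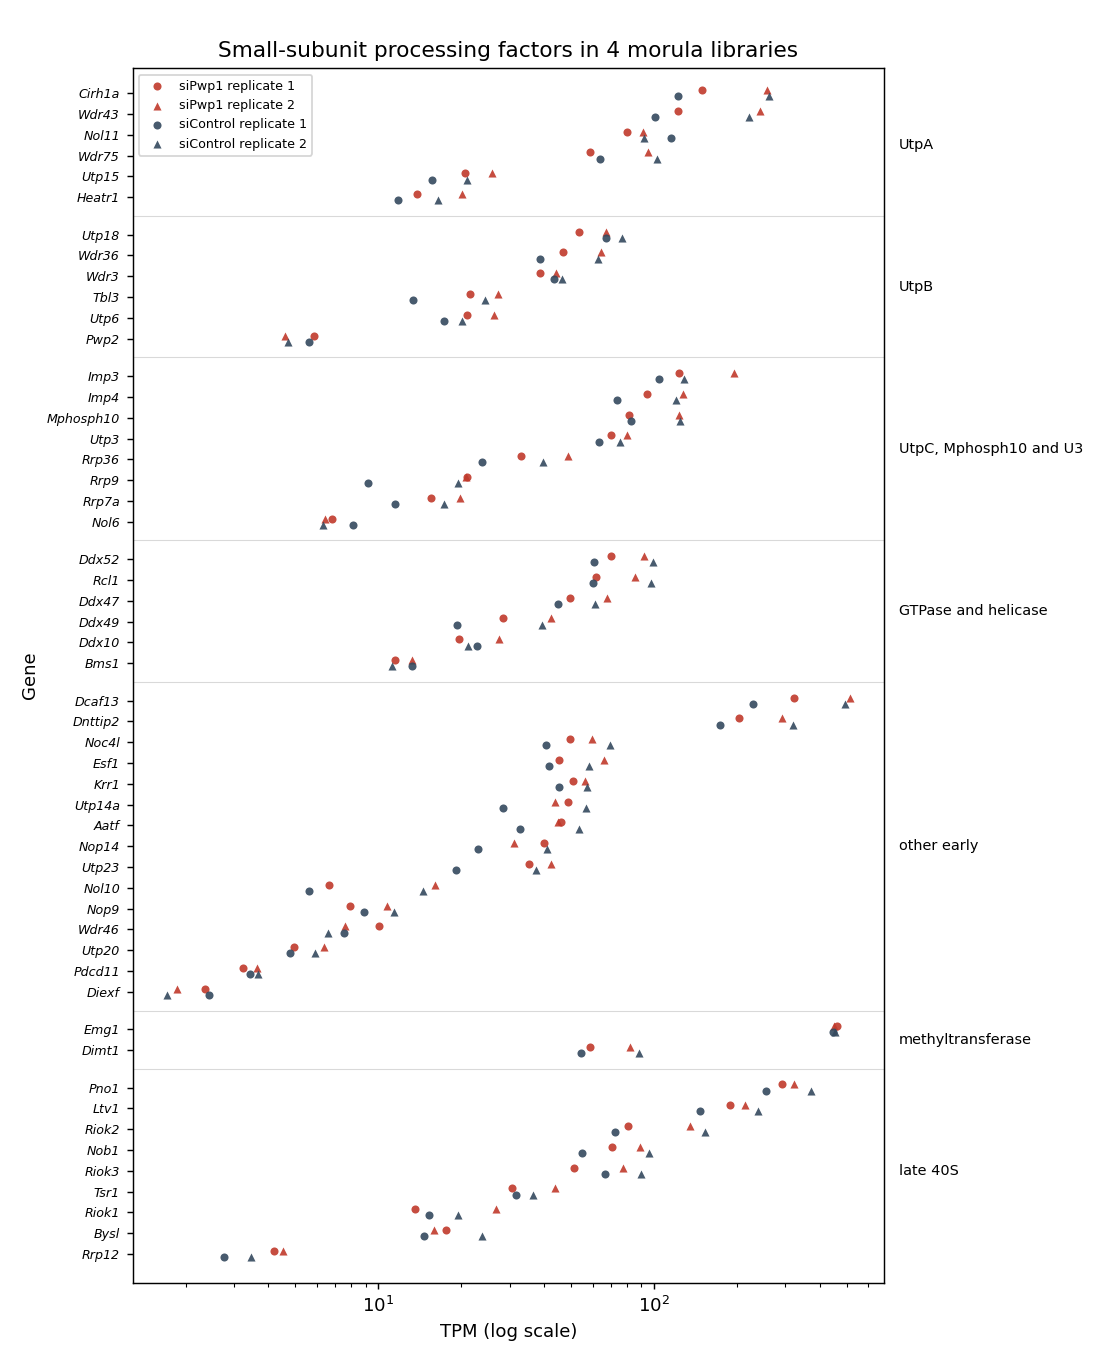
TPM (log scale) of the 52 processing factors, grouped by role on the vertical axis, in siPwp1 replicates 1 and 2 (red) and siControl replicates 1 and 2 (dark blue). Circles are replicate 1 and triangles replicate 2. Emg1 and Dcaf13 lie furthest right, Diexf furthest left, and for many genes the 2 triangles lie together to the right of the 2 circles.

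Promoter sequences were read from RefSeq windows on GRCm38.p6, from 250 bases before to 50 bases after the annotated start, for the 44 of 52 factors that had one, 48 windows in all. Motifs were searched on both strands. The E-box CACGTG, the letters bound by MYC and related factors, was in 15 of 48 windows (31.2%), against 9.81% of the windows of all tested genes and 7.15% of all promoter windows of the same length. The ETS motif CCGGAAG was in 21 of 48 windows (43.8%), against 16.7% and 8.86%. The NRF1 motif CGCANGCGC was in 25% of the factors' windows, against 12.7% and 6.31%. The YY1 motif GCCATNTT was in 12.5%, against 8.06% and 6.05%. The GC-box GGGCGG was in 58.3%, against 60% and 35.7%. In the 250 bases before the start alone, the E-box was in 14.6% of the factors' windows, against 8.2% of those of tested genes. Its share was thus nearer that of tested genes there than in the whole window. The YY1 motif was in 4.17%, against 4.29%, so its higher share in the whole window was not seen there. The ETS motif was in 37.5%, against 12.9%, the NRF1 motif in 16.7%, against 10.4%, and the GC-box in 52.1%, against 55.4%. By gene, 13 factors (29.5%) had the E-box, against 11.6% of tested genes, and 19 (43.2%) the ETS motif, against 19.3%. Both motifs were in 6 factors and at least 1 of these in 26. Windows of the same gene can overlap, and those of Diexf held the same E-box. Each motif was counted on its own, so matches of different motifs may share bases, and CACGTG reads the same on both strands.

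The windows below show the E-box, in capitals, with its flanking bases for the 7 most abundant factors that had one. They were picked for the motif and lined up on it, and are shown to give its sequence context in members of several role groups. These are UtpA (Cirh1a, Wdr43, Nol11), UtpB (Utp18), the Mphosph10 complex (Imp4) and late factors (Pno1, Ltv1). In Imp4, Nol11 and Utp18 the E-box lies before the annotated start. In Pno1, Ltv1, Cirh1a and Wdr43 it lies after the start, beginning at bases 38, 29, 16 and 18. The Pno1 stretch is shorter because its promoter window ends there.
Pno1, chr11:17211540-17211562, minus strand: tacaaccacgCACGTGttcctct
Ltv1, chr10:13193094-13193119, minus strand: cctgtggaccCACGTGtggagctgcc
Cirh1a, chr8:106893645-106893670, plus strand: cgcaagcgcgCACGTGgggccggggc
Wdr43, chr17:71616222-71616247, plus strand: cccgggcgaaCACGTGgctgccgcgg
Imp4, chr1:34439698-34439723, plus strand: ggtcttagacCACGTGacatcccaaa
Nol11, chr11:107189409-107189434, minus strand: tgagcgttcgCACGTGgtctagactc
Utp18, chr11:93885771-93885796, minus strand: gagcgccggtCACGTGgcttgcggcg

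Utp18 is one of the 6 factors with both motifs, and its 250 bases before the start show how they lie (chr11:93885767-93886016, GRCm38.p6, minus strand). The capitals mark the ETS motif, which starts 106 bases before the start, and the E-box, which starts 20 bases before it.
Utp18: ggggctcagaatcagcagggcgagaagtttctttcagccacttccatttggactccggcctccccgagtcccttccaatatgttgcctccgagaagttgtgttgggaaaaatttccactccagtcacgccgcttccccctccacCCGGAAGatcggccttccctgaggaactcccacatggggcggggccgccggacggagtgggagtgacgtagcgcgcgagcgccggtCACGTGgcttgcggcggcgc

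Setting siPwp1 against siControl asks what targeting Pwp1 does to mRNA levels in the morula. None of the 52 processing factors passed the test, in either direction. edgeR's quasi-likelihood test called 0 of 52 at an adjusted p under 0.05, where it called 0% of the 13585 genes tested. At an unadjusted p under 0.05 it passed 0 of 52, where 2.66% of all genes passed. DESeq2 called 0 of 52, where it called 0.324% of all genes, and edgeR with the replicate number as a block called 0 of 52, where it called 0.589%. The smallest unadjusted p of any factor in edgeR without the block was 0.199, for Imp3. With the block it was 0.028, for Utp23 (edgeR adjusted p = 0.45). The bulk libraries cannot tell fewer cells with a given mRNA from less mRNA per cell.

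The fold changes of the factors lay close to 0. The log2 fold change, siPwp1 over siControl, had a median of 0.08 over the factors and of -0.001 over all genes tested, with 34 factors above 0 and 18 below. The range was -0.29 (Nol11) to 0.55 (Rrp9). In 37 of 52 factors (71.2%) the 95% interval of the edgeR log2 fold change lay within 2-fold either way, against 25.8% of all genes tested. This was not particular to the factors. The share was 70.2% of 47 large-subunit assembly factors and 59.1% of 22 further small-subunit factors. It was 96.8% of 31 small-subunit ribosomal protein genes and 100% of 4 core box C/D proteins. The genes tested include many at lower levels, and the part of level in these shares was not tested. Over all 52 factors the intervals reached down to -1.15 and up to 1.51. In 49 of 52 factors the difference between replicates, in the group where it was larger, exceeded the difference between the groups on the log2 scale. The same held for 10227 of 13585 genes tested, a lower share. The measure sets the larger difference between single libraries against a difference between groups, which favours the replicates.

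**Figure D2:**
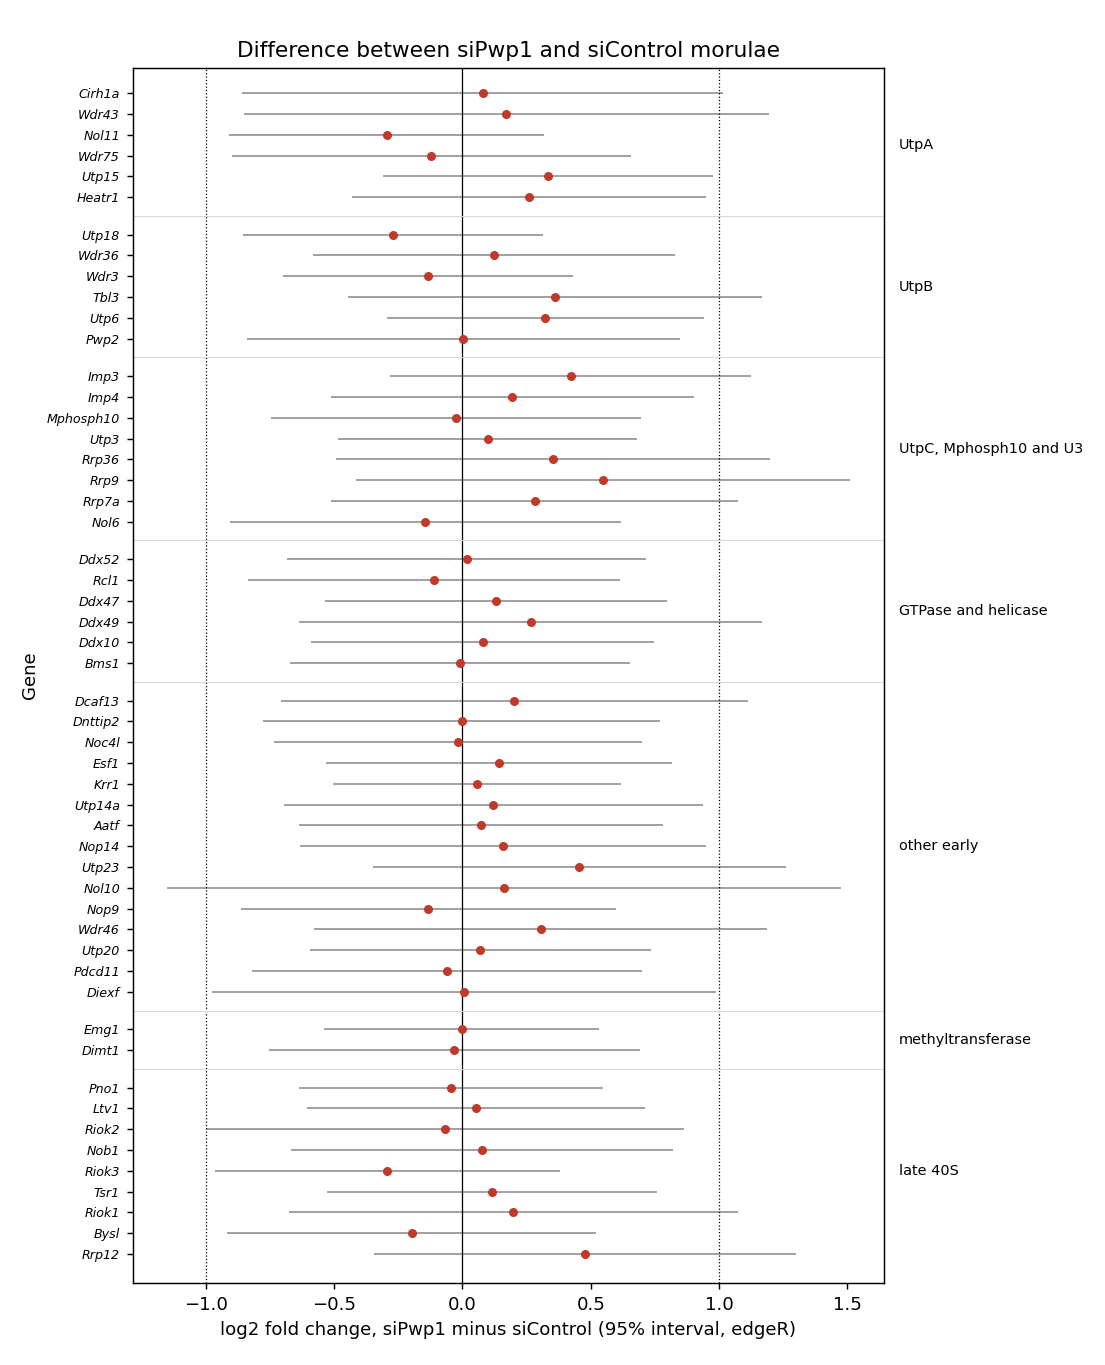
Log2 fold change of each processing factor, siPwp1 over siControl (horizontal axis), from edgeR with its 95% interval (grey bars), grouped by role. Solid line, no difference; dotted lines, 2-fold. All 52 intervals cross 0, and 37 of them lie within the dotted lines.

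Groups were called separated where the CPM ranges of siPwp1 and siControl did not overlap, with CPM scaled by TMM. 5 of 52 factors (9.62%) were separated and higher in siPwp1, against 14.7% of all genes tested. 2 of 52 (3.85%) were separated and lower, against 14.1%. The libraries overlapped for the other 45. Both shares of the factors lay below those of all genes. Some separations depended on the scale. In TPM the groups of Utp15, Imp3, Utp18 and Wdr3 overlapped, while those of Utp6, Rrp9 and Rrp12 stayed separated. Utp18, for example, had 53.39 and 67.31 TPM in siPwp1 against 67.3 and 76.68 TPM in siControl. An exact two-sided permutation test of 2 against 2 libraries cannot give a p under 0.333, so no p is given for a single factor by that test.

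UtpA had 4 subunits above 0 and 2 below, with a median log2 fold change of 0.13. Cirh1a, the UTP4 relative, had 293 and 485 CPM in siPwp1 against 248 and 488 CPM in siControl, with 1 high and 1 low library in each group. Utp15 had 77.6 and 94.0 CPM in siPwp1 against 60.9 and 75.1 CPM in siControl. Its groups were separated, with siPwp1 replicate 1 and siControl replicate 2 close together, and it had a log2 fold change of 0.33 (SE 0.27, edgeR adjusted p = 0.9998). Nol11, which in human cells is needed for transcription of ribosomal RNA, had 229 and 252 CPM in siPwp1 against 339.6 and 249.9 CPM in siControl. The difference between its group means rested mainly on siControl replicate 1, which stood above the other 3 libraries. Without that library its log2 fold change was -0.06. The exons of Nol11 overlap an antisense gene.

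UtpB had 4 subunits above 0 and 2 below, with a median of 0.06. Utp18, which in yeast brings the RNA exosome to the cut spacer, had 124 and 150.4 CPM in siPwp1 against 161 and 169.9 CPM in siControl. Its groups did not overlap in CPM but overlapped in TPM. Its log2 fold change was -0.27 (SE 0.25, 95% interval -0.85 to 0.31, edgeR adjusted p = 0.9998). Wdr3, named after its values were seen, was also separated in CPM but not in TPM. It had 120.5 and 133 CPM in siPwp1 against 139 and 139 CPM in siControl. Tbl3, the relative of yeast Utp13, had 47.9 and 58.3 CPM in siPwp1 against 30.7 and 51.9 CPM in siControl, and its groups overlapped. Utp6, also named after its values were seen, was separated the other way, with 74.7 and 90.2 CPM in siPwp1 against 63.3 and 68.5 CPM in siControl. Subunits of UtpB were therefore on both sides of 0.

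UtpC, the Mphosph10 complex and the U3 protein had the highest median of the role groups, 0.24, with 6 genes above 0 and 2 below. Imp3, which in yeast helps U3 pair with the precursor (chr9:56937475-56938398, GRCm38, plus strand, 1 exon), had 77.1 and 117 CPM in siPwp1 against 67.8 and 76.9 CPM in siControl. Its groups were separated by a narrow margin, since siPwp1 replicate 1 and siControl replicate 2 were nearly level, and its log2 fold change was 0.42 (SE 0.30, 95% interval -0.28 to 1.13, edgeR adjusted p = 0.9998). Rrp9, which binds U3 (chr9:106475963-106485424, GRCm38, plus strand), had 26.5 and 25.2 CPM in siPwp1 against 11.97 and 23.4 CPM in siControl. This was the largest log2 fold change of the set, 0.55 (SE 0.41, 95% interval -0.42 to 1.51, edgeR adjusted p = 0.9998), and 3 of the 4 libraries lay between 23.4 and 26.5 CPM, with siControl replicate 1 apart. Nol6, the UTP22 relative, had 28.4 and 25.8 CPM in siPwp1 against 34.8 and 25.2 CPM in siControl, and the groups overlapped.

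Among the GTPase Bms1, its partner Rcl1 and the DEAD-box helicases, 4 were above 0, 2 were below and none was separated. Ddx52, the relative of yeast Rok1, had 201 and 255 CPM in siPwp1 against 179 and 272 CPM in siControl. Ddx49, the relative of yeast Dbp8, had 51.5 and 74.1 CPM in siPwp1 against 36.3 and 68.0 CPM in siControl. Rcl1, which binds Bms1, had 94.0 and 124 CPM in siPwp1 against 94.3 and 142 CPM in siControl. In all 3 the replicates of a group stood further apart than the group means.

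Of the 15 other early factors, 11 were above 0, 4 were below and none was separated, with a median of 0.07. Dcaf13 had 406 and 623 CPM in siPwp1 against 298 and 596 CPM in siControl. Utp23, which in yeast is needed to release the snR30 small nucleolar RNA, had 92.2 and 107 CPM in siPwp1 against 51.8 and 93.5 CPM in siControl. For Utp23, siControl replicate 1 stood below the other 3 libraries, and its log2 fold change was 0.46 (SE 0.34, edgeR adjusted p = 0.9998). Nop9, a Pumilio-like RNA-binding protein, had 27.9 and 36.4 CPM in siPwp1 against 32.1 and 38.3 CPM in siControl.

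The 2 methyltransferases had log2 fold changes near 0. Emg1 had 357 and 334 CPM in siPwp1 against 357 and 335 CPM in siControl, with a log2 fold change of -0.002 (SE 0.23, 95% interval -0.54 to 0.53). Dimt1, which dimethylates adenosines near the end of 18S ribosomal RNA, had 132 and 178 CPM in siPwp1 against 127 and 191 CPM in siControl. For both genes the replicates of one number matched across groups more closely than the replicates within a group.

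Of the 9 late factors, 5 were above 0 and 4 below. Pno1 had 374 and 396 CPM in siPwp1 against 339 and 454 CPM in siControl, with both siPwp1 libraries between the siControl libraries. Rrp12, a HEAT-repeat protein that in yeast takes part in export of the particle, had 16.8 and 17.5 CPM in siPwp1 against 11.3 and 13.3 CPM in siControl, with a log2 fold change of 0.48 (SE 0.35, edgeR adjusted p = 0.9998). It was the one separated late factor. Riok3, a RIO kinase found on the late particle in human cells, had 173 and 250.1 CPM in siPwp1 against 229.8 and 288 CPM in siControl, and its groups overlapped. Of the 52 factors, 23 have an exon overlapped by an exon on the other strand, among them Nol11, Tbl3, Rrp9, Ddx49, Utp23, Nop9, Emg1, Dimt1 and Pno1. Whether counting used strand is not given in the sources used here, so reads of the overlapping genes may be included in these levels.

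Partner proteins outside the rule for named genes, chosen after their values were seen, had mRNA levels that differed between libraries in different ways. Mphosph10, the scaffold that holds Imp3 and Imp4, had 156 and 228 CPM in siPwp1 against 162 and 228 CPM in siControl, nearly the same for each replicate number. Imp4 had 186 and 242 CPM in siPwp1 against 149 and 225 CPM in siControl. Utp3, which joins them on the particle, had 92.3 and 102 CPM in siPwp1 against 86.2 and 95.1 CPM in siControl. In all 3 the groups overlapped, and replicate 2 was the higher library in each group. Nop14 and Noc4l, whose proteins bind each other in yeast, did not follow each other. Nop14 had 96.3 and 72.0 CPM in siPwp1 against 56.9 and 94.1 CPM in siControl, so replicate 2 was the lower library in siPwp1 and the higher one in siControl. Noc4l had 87.1 and 100.5 CPM in siPwp1 against 73.7 and 116 CPM in siControl, with replicate 2 higher in both groups.

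The GTPase Bms1 had 45.8 and 50.7 CPM in siPwp1 against 54.3 and 42.7 CPM in siControl, and its groups overlapped. Utp14a, which activates the helicase that strips U3 from the particle, had 105 and 89.9 CPM in siPwp1 against 62.7 and 116 CPM in siControl. For Utp14a the siPwp1 libraries lay between the siControl libraries. Nob1, the endonuclease that makes the last cut of 18S ribosomal RNA, had 96.5 and 117 CPM in siPwp1 against 77.1 and 125 CPM in siControl. Riok2, the kinase that acts before that cut, had 234 and 377 CPM in siPwp1 against 215 and 426 CPM in siControl. Ltv1, which leaves the late particle when phosphorylated, had 281 and 306 CPM in siPwp1 against 226 and 339.8 CPM in siControl. For each of these 3 late factors both siPwp1 libraries lay inside the range of the siControl libraries. These genes too were chosen after their values were seen.

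The factors differed more between replicate numbers than between groups. In CPM, 37 of 52 (71.2%) were higher in replicate 2 than in replicate 1 in both siPwp1 and siControl, against 32.6% of all genes tested. 5 factors were lower in replicate 2 in both groups, against 33.9% of all genes, and 10 were mixed. The median difference, replicate 2 minus replicate 1 in log2(CPM + 0.5), was 0.28 in siPwp1 and 0.44 in siControl over the factors, and 0.00 and -0.02 over all genes. The 5 that were lower in replicate 2 were Pwp2, Nol6, Diexf, Wdr46 and Emg1, and those outside the rule for named genes were named after their values were seen. Replicate 2 was the shallower library in siPwp1 and the deeper one in siControl, and the part of depth in these differences was not tested.

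Nol10, which in human cells works with Aatf, had the largest replicate difference in both groups. Its level was 17.9 and 41.5 CPM in siPwp1 against 15.5 and 37.5 CPM in siControl, or 2.29-fold higher in replicate 2 of siPwp1 and 2.38-fold higher in replicate 2 of siControl. Wdr43, the UTP5 relative, had 386 and 734 CPM in siPwp1 against 326 and 668 CPM in siControl. In both genes the replicate 2 libraries of the groups lay near each other, and so did the replicate 1 libraries. Nol10 and Wdr43 were named after their values were seen.

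**Figure D3:**
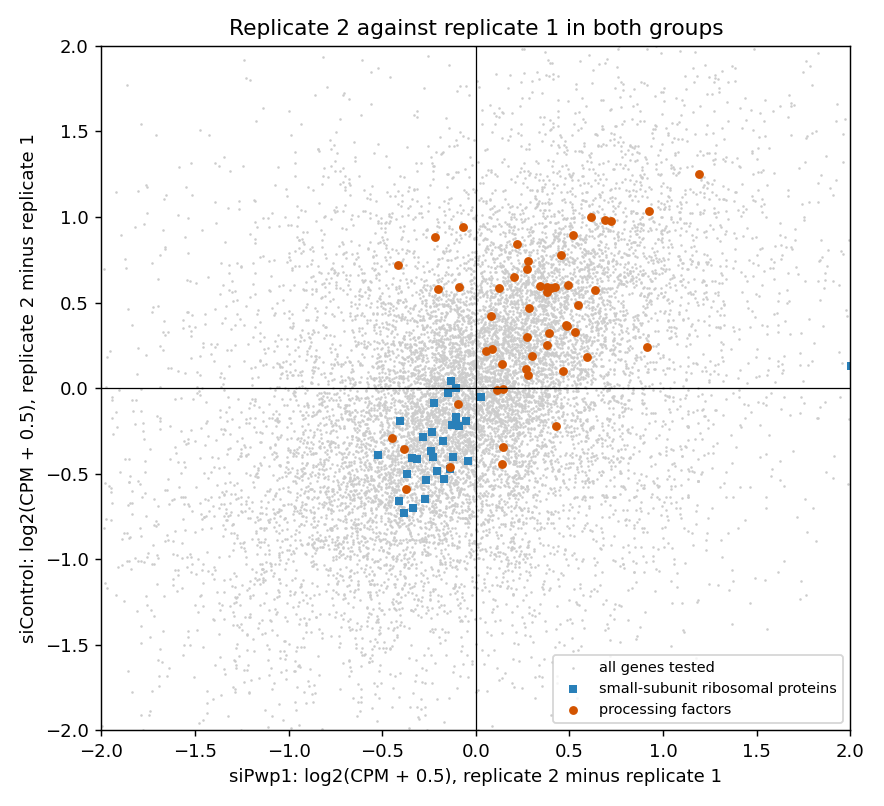
Replicate 2 minus replicate 1 in log2(CPM + 0.5), in siPwp1 (horizontal axis) and in siControl (vertical axis), for all genes tested (grey), small-subunit ribosomal proteins (blue squares) and processing factors (orange). Genes beyond the axis limits are not drawn. 37 of the 52 factors lie at the upper right, and 27 of the 31 ribosomal protein genes in the lower left.

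Summed over the 52 factors, the level was 3466 and 4574 TPM in siPwp1 against 3042 and 4617 TPM in siControl. As a share of all expected counts this was 0.678% and 0.845% in siPwp1 against 0.6% and 0.837% in siControl. Both replicate 2 libraries lay above both replicate 1 libraries. The siControl replicate 1 library was the lowest of the 4 for 34 of 52 factors, and siPwp1 replicate 2 was the highest for 23. Leaving out siControl replicate 1 moved the median log2 fold change of the factors to -0.06, with 20 above 0 and 32 below. Leaving out siPwp1 replicate 2 moved it to -0.08, while leaving out siControl replicate 2 gave 0.34 and leaving out siPwp1 replicate 1 gave 0.21. The sign of the median thus changed with the library left out.

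Large-subunit assembly factors, listed for comparison, lay on the same side: 33 of 47 were higher in replicate 2 in both groups, and their sums were 5667 and 7255 TPM in siPwp1 against 4610 and 7039 TPM in siControl. Of 22 further small-subunit factors outside the 52, 9 were higher in replicate 2 in both groups, 5 were lower in both and 8 were mixed. The 22 summed to 3326 and 3877 TPM in siPwp1 against 2848 and 3487 TPM in siControl, so the sum was higher in replicate 2 of both groups. The ribosomal proteins that these factors assemble lay on the other side. Of 31 small-subunit ribosomal protein genes, 27 were lower in replicate 2 in both groups, and their sums were 93514 and 84527 TPM in siPwp1 against 93972 and 81115 TPM in siControl. Ribosomal protein genes have many processed pseudogenes, so the split of their reads is uncertain. Whether any of these lists differs from the factors was not tested.

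Markers of later trophectoderm, the outer layer that forms after the morula, also differed by replicate number. Of 8 markers, 7 were lower in replicate 2 in both groups, and their sums were 296.6 and 84.6 TPM in siPwp1 against 440.4 and 66.1 TPM in siControl, with no marker at 0 in all libraries. Sums of 2-cell stage markers were 75.6 and 133 TPM in siPwp1 against 10.6 and 17.2 TPM in siControl, with all 8 measured. Separated and higher in siPwp1 were 7 of 8, against 14.7% of all genes tested. The median log2 fold change of the 8 was 2.97. For these 8, edgeR called 0, with 6 at an unadjusted p under 0.05, against 2.66% of all genes. DESeq2 called 5 of the 8, against 0.324% of all genes. The 2-cell list was chosen with earlier results of these data known, so its counts are only a description. Of the 10 morula markers, some of which are also on the trophectoderm list, 7 were lower in replicate 2 in both groups. In siPwp1 against siControl, 9 of the 10 were below 0, with a median log2 fold change of -0.60. Separated and lower were 2 of the 10, against 14.1% of all genes tested. For these 10, edgeR called 0, with 0 at an unadjusted p under 0.05 and 0 by DESeq2. The part of any of these lists in the levels of the processing factors was not tested.

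In siPwp1 against siControl, edgeR called 0 of the 47 large-subunit factors, 0 of the 22 further small-subunit factors and 0 of the 4 core box C/D proteins, with 0 in each list at an unadjusted p under 0.05 and 0 by DESeq2. Their median log2 fold changes were 0.11, 0.15 and -0.01. Separated and higher were 6 of 47, 4 of 22 and 1 of 4, against 14.7% of all genes tested, and separated and lower were 4 of 47, 1 of 22 and 0 of 4, against 14.1%. The factors that had an E-box in their promoter window had a median log2 fold change of 0.07 (n = 13), and those with a window but no E-box had 0.06 (n = 31). With and without the ETS motif the medians were 0.08 (n = 19) and 0.06 (n = 25). No factor in these motif groups passed the test.

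**Figure D4:**
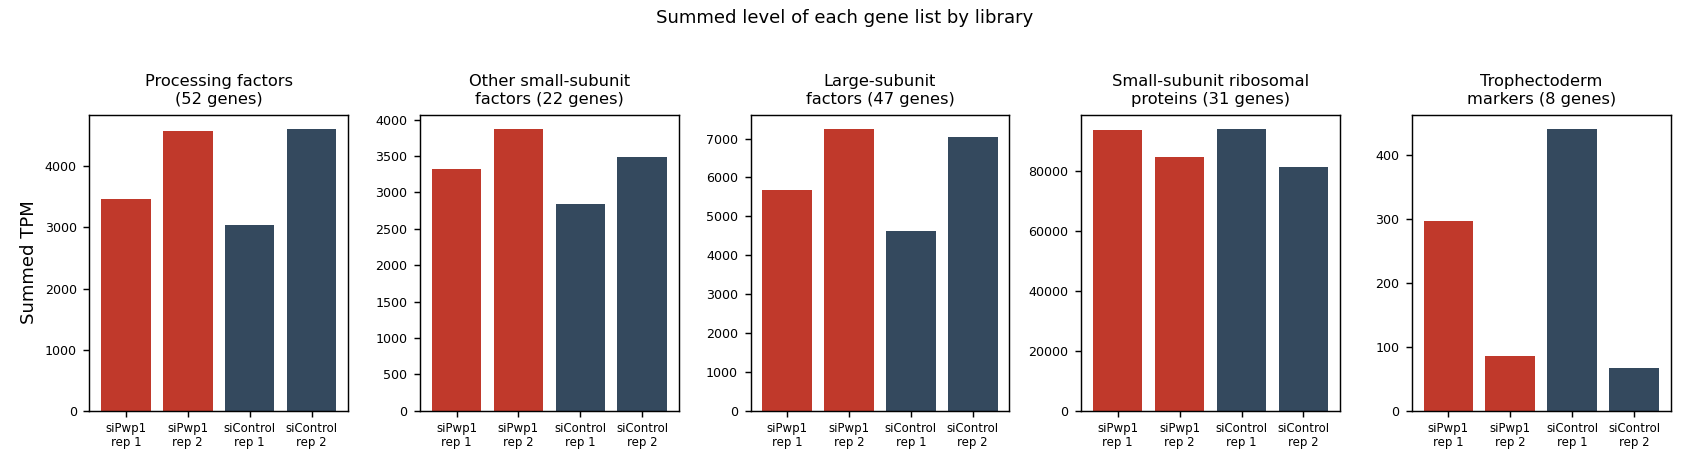
Summed TPM of 5 gene lists in siPwp1 replicates 1 and 2 (red) and siControl replicates 1 and 2 (dark blue), 1 bar per library, each panel on its own axis from 0. Processing factors, other small-subunit factors and large-subunit factors are higher in replicate 2 of both groups, and small-subunit ribosomal proteins and trophectoderm markers are lower there.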

How the data were processed

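RNA-seq of 4 mouse morula libraries was read from the authors' tables, 1 per library. The deposited values are expected counts per gene, not normalized, and TPM, scaled within each library, per the file headers. FPKM were not used. The submitters' processing notes name the aligner STAR 2.7.10, the quantifier RSEM 1.3.3 and, as the genome, mm10. Strand setting, annotation and trimming: not given in the sources used here. Expected counts were rounded to whole numbers, filtered with filterByExpr (minimum count 10, 13585 genes kept), scaled by TMM and tested in R 4.3.3 with edgeR 4.0.16 (quasi-likelihood, no term other than group). P-values are two-sided and adjusted by the Benjamini-Hochberg method over all genes tested, with a threshold of 0.05. CPM are scaled by TMM. DESeq2 1.42.0 and limma 3.58.1 were alternatives, with other filters, a replicate block and each library left out. The steps were tested on simulated data. Intervals are 95% intervals of the edgeR fit.

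The members, role groups, other lists and motifs were chosen with earlier results of these data known. Named were Pwp1 and, per role group, the factor with the highest mean TPM and those with the largest positive and negative log2 fold change, and any factor with an unadjusted p under 0.05 or separated by at least 1.5-fold. Gene positions are from GENCODE M21 and promoter sequences from RefSeq, both on GRCm38.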

Additional observations from a re-analysis of the deposited data

How the results depend on the processing

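The processing factors gave 0 calls of 52 with DESeq2 size factors, DESeq2, no filter, a stricter filter, the replicate block, each library left out, limma on log2(TPM + 1) and a threshold of 0.1. Calls were not counted with limma on log2(TPM + 0.1). Over all genes the count of calls moved from 0 to 44 with DESeq2 (42 higher, 2 lower), 106 with no filter on low counts (99 higher, 7 lower) and 80 with the replicate block (71 higher, 9 lower), and to between 6 and 142 with a library left out. The cause was not tested. Libraries with the same replicate number deviated together (r = 0.43 over 13585 genes). The labels give only a number and 2 pairs, so the block was used only as an alternative. Pwp1 passed the threshold under the replicate block (log2 fold change -2.92, edgeR adjusted p = 0.000208), DESeq2 (-2.96) and no filter (-2.98). It did not pass with DESeq2 size factors (edgeR adjusted p = 0.2245) or a stricter filter (edgeR adjusted p = 0.2075). Nor did it pass with limma on log2(TPM + 1) (limma adjusted p = 0.3351). With a library left out, the log2 fold change of Pwp1 was -3.30 to -2.54. Leaving out a library gave medians of -0.076 to 0.34 for the factors, and 9 to 35 separated and higher and 4 to 19 separated and lower, where 1 library stands for a group and is assumed to vary like the other. With no filter 4 of 52 were separated and lower, against 2 with the filter. With the stricter filter 7 were separated and higher, against 5. These counts too have no share over all genes to set beside them. Without siControl replicate 2, 4 factors had an unadjusted p under 0.05, against 9.68% of all genes. In the 250 bases before the start, the E-box share was 14.6% (8.2% of tested genes' windows) and the YY1 share 4.17% (4.29%). Of 209 values of the 19 named factors under alternatives, 185 kept direction and side and 24 changed sign, none of them past the threshold. Emg1 was at 0.0046 with DESeq2 size factors or DESeq2, 0.036 with a stricter filter (5 CPM in 2 libraries) and 0.0211 with limma on log2(TPM + 1) or log2(TPM + 0.1), and Dimt1 at 0.0056 with the stricter filter. Leave-one-out ranges that crossed 0 were -0.33 to 0.64 for Cirh1a, -0.36 to 0.11 for Nol6, -0.25 to 0.34 for Ddx52, -0.12 to 0.79 for Ddx49, -0.21 to 0.78 for Dcaf13, -0.050 to 0.050 for Emg1, -0.38 to 0.21 for Rcl1, -0.33 to 0.048 for Nop9, -0.30 to 0.29 for Dimt1 and -0.24 to 0.18 for Pno1. Chosen after seeing the data, other scalings, filters and TPM left 37 to 39 factors higher in replicate 2 in both groups. The lowest count of a factor in any library was 282, and the part of depth in the replicate differences was not tested.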
